A study of Mus musculus with 6 samples.

Results

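Nuclear genes of oxidative phosphorylation were followed through single-cell libraries of the developing mouse lung. The members were the gene symbols starting with Nduf, Uqcr or Atp5, or running from Cox4i to Cox8, and they were selected on their level, at least 10 CPM (a gene's UMIs per 1000000 UMIs) in 1 library. Their levels are therefore given as a description. Of 31053 gene rows, 89 matched these names and 83 passed the minimum. They comprised 7 core subunits, 29 accessory subunits and 8 assembly factors of complex I, 8 genes of complex III, 15 of complex IV and 16 of complex V. Ndufa4 and its paralogue Ndufa4l2 were placed with complex IV.

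Complexes I, III and IV of the inner mitochondrial membrane pass electrons to oxygen and pump protons, and complex V, the ATP synthase, lets the protons back to make ATP. A minority of the subunits is encoded by mitochondrial DNA, and those transcripts carry the prefix mt-, while the others are nuclear genes translated in the cytosol. Several nuclear subunits of complexes IV and V come in isoforms from separate genes, some of them known from muscle, from testis or from cells short of oxygen.

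The time course held 4 libraries, 1 from embryos at E13.5, 1 at E15.5, another at E18.5 and the last from pups at P8, prepared from pooled lungs of Cxcl12DsRed/+ mice. In this allele DsRed stands in the first exon of Cxcl12, so reporter-positive cells carry 1 working copy of the chemokine gene, and they were sorted for DsRed and for CD31 after cells with CD45 or EpCAM were left out. Reporter-positive cells without CD31 were also collected, which are rich in mesenchyme. Another 2 libraries came from unsorted lungs of E18.5, labelled Cxcl12DsRed/+ (control) and Cxcl12DsRed/DsRed (null). Each condition had 1 library, so no test between conditions was possible, and every interval below covers counting error only.

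Cxcl12, the targeted gene, had levels of 994, 742, 1235 and 1125 CPM in sorted endothelial cells (ECs) over the time course. In the whole lungs it went against the labels, with Cxcl12 at 578 CPM in ECs of the library labelled null and 5.42 in ECs of the library labelled control. The names of the deposited data also give these 2 libraries the opposite genotypes. They are therefore called the library labelled null and the library labelled control throughout, and no direction between them can be read as an effect of genotype.

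ECs were cells with at least 2 UMIs of Pecam1 and Cdh5, and mesenchymal cells had at least 5 UMIs of Col1a1 and Col3a1. The 4 time points gave 173, 8990, 9006 and 8204 ECs in order of age, and 11236, 2059, 282 and 68 mesenchymal cells. In ECs the endothelial markers, 7 genes outside the gate, summed to 3923 to 9200 CPM, against 42.7 to 140.0 CPM in mesenchymal cells. The libraries held 63746333 to 117522172 UMIs, and pairs of libraries shared 20 to 140 cell barcodes, the most between both whole lungs. The median EC had 6616, 8442, 5648 and 5650 UMIs over the time course. In the whole lungs labelled control and null it had 7348 and 8305. The part of UMIs per cell in the members' levels was not tested.

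At the lower edge of the membership, Atp5s reached 11.1 CPM in the library labelled control and Ndufaf5 11.7 CPM at E13.5. Ndufaf7 followed at 20.2 CPM and Ndufaf1 at 23.5 CPM. Just below the minimum stood Cox7a1, the muscle isoform of subunit 7a, whose highest library had 3.69 CPM. Cox8b had 1.35 CPM at most, Cox6a2 0.820, Cox7b2 0.442 and Cox8c 0.0119, and a second row named Atp5o had no UMI. Reads of 25 members could be shared with other genes over part of the last 300 bases of their transcripts. For Atp5l, Cox7c, Atp5h, Atp5g2 and Ndufs3, between 51.0% and 68.5% of the 60-base stretches there also occur in transcripts of other genes. None of these stretches occurs in another gene that the deposited table counts, and how reads from them were assigned was not tested.

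Most members were lower in ECs at E18.5 than at E15.5. Promoters of members are shown where they hold the letters that nuclear respiratory factor 1 (NRF1) is known to bind. The part of NRF1 in the lower level was not tested. RefSeq promoters on GRCm38.p6, running from 250 bases before to 50 bases after the start, were matched for 68 members, and 15 had no entry. The letters GCGCATGC, on either strand, were present for 11 members (16.2%), against 6.8% of 6618 other genes of 10 CPM or more and 2.71% of all 32851 promoters. A longer form of 10 letters, in which matches of both strands join, was searched first and was present for 7 members (10.3%), against 2.55% and 0.971%. Stretches with 20 bases on either side follow, 5′ to 3′ on the strand of the gene, for the 6 members in which the letters and these flanks lie wholly between the outer edge of the promoter and the start. The matched letters are in capitals, and where both strands match at one place the joined run is. The stretches lie at chr4:24897950-24897999 (+), chr5:108434420-108434469 (-), chr5:115349091-115349140 (-), chr15:82354347-82354394 (-), chr15:102671060-102671109 (-) and chr17:56717682-56717731 (+).
Ndufaf4: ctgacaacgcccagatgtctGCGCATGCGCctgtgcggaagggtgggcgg
Atp5k: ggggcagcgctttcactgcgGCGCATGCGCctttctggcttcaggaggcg
Cox6a1: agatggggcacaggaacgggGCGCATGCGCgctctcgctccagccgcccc
Ndufa6: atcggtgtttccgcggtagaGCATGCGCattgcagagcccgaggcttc
Atp5g2: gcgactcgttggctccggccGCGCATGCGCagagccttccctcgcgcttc
Ndufa11: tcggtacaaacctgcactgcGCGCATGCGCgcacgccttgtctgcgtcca

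The letters of GABPA, YY1 and the oestrogen-related receptors were searched as well, all on both strands, and no motif overlapped another in a member. CCGGAAG, bound by GABPA, was found in 16 members (23.5%) and in 22.9% of the other expressed genes. AAGATGGC, bound by YY1, was in 10 (14.7%) against 5.94%. TCAAGGTCA, bound by oestrogen-related receptors, was in 1 member, Atp5g3 (1.47%), against 0.287%. In Atp5g3 these letters lie on the opposite strand at chr2:73911350-73911398 (-).
Atp5g3: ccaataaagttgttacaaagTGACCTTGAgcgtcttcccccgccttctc
In ECs the log2 ratio of E18.5 to E15.5 ranged from -1.06 (Atp5k) to 0.29 (Ndufa6) over the 10 tested members with the NRF1 letters, with a median of -0.56. The median was -0.52 over the 56 members without these letters. For the YY1 letters the medians were -0.655 over 10 members with and -0.51 over 56 without, and for the GABPA letters -0.57 over 16 and -0.51 over 50. Atp5g3 had -0.78.

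The summed level of all members in ECs was highest at E15.5 and lowest at the later time points. All members together made up 31695 CPM (95% interval 31383 to 32009) in the E13.5 library and 34912 CPM (34874 to 34951) in that of E15.5. The sums were 23650 CPM (23610 to 23689) for E18.5 and 23456 CPM (23418 to 23495) for P8. The E18.5 and P8 values lay close together and both fell below the earlier pair. In mesenchymal cells all members summed to 29384, 28626, 22358 and 28024 CPM from the earliest time point to the latest. The mesenchymal cells of the sorted libraries were not one population over time, since the mural markers Acta2, Tagln, Myl9, Pdgfrb, Cspg4 and Rgs5 summed to 3085 CPM in them at E13.5 and 10735 CPM at P8.

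**Figure D1:**
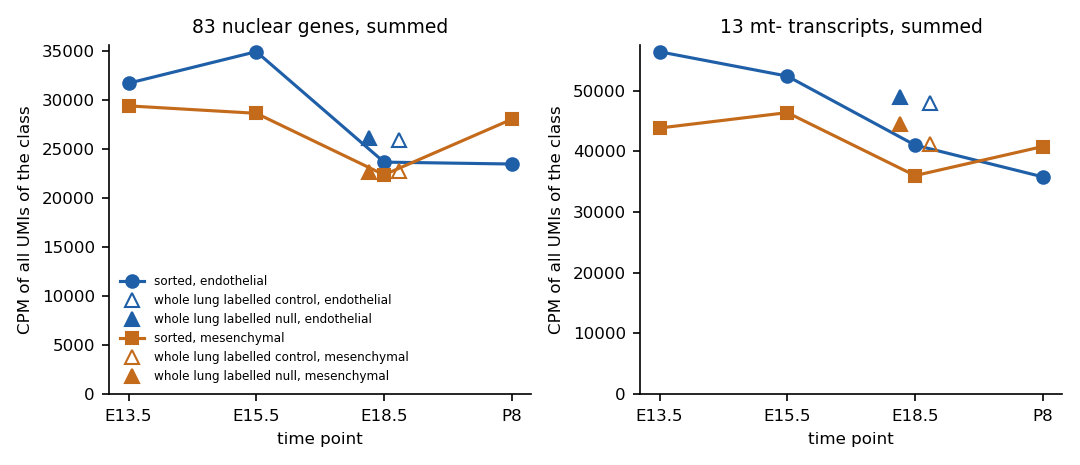
Summed level of the members (left) and of the mt- transcripts (right), in CPM, by time point in endothelial and mesenchymal cells of the sorted libraries (lines) and in both whole E18.5 lungs (triangles, open for the library labelled control and filled for the library labelled null). No error bars are drawn. The EC sum of the members was 34912 CPM at E15.5 and 23650 at E18.5.

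Between E13.5 and E15.5, 4 of 80 tested members rose by at least 1.5-fold in ECs (8.75% of all genes did) and 2 fell (13.2%). A tested gene had at least 10 CPM in 1 of both libraries, and ratios were taken after adding 0.5 CPM. The members' median log2 ratio was 0.11, beside -0.08 over all genes. Atp5g3, a gene of the c subunit ring of ATP synthase, went from 255 to 416 CPM, Ndufa1 from 138 to 219 and Ndufa4 from 775 to 1190. Ndufa8 also passed the fold at 0.61 on the log2 scale. The members that fell were Ndufaf5, by 0.90 on the log2 scale, and Cox4i2, at 13.6 CPM and then 3.83 CPM. Ndufaf5 reached the minimum for membership at E13.5 alone, so that a fall from there was favoured. Cox4i2 was tested through its E13.5 level alone, with 17 UMIs, so that its fall was favoured too. Markers of other cells moved in the same ECs. The 7 mesenchymal markers summed to 164 CPM and then 24.0 CPM, and the 3 that were tested all fell (median -2.92). The 6 mural markers went from 231 to 97.6 CPM in sum, and the 3 tested all fell (median -1.02). Of 3 tested haemoglobins 2 rose and none fell (median 1.26). The 1 tested epithelial marker rose by 0.78, and of 2 immune markers 1 rose and 1 fell. Their part in the change of Cox4i2 was not tested. The E13.5 values rest on 173 cells. CellRanger was version 3.1.0 for the E13.5 library and 3.0.2 for that of E15.5, and the part of this was not tested.

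Between E15.5 and E18.5, 34 of 79 tested members fell by at least 1.5-fold in ECs, against 11.3% of all genes, and 1 rose, against 22.7%. The members' median log2 ratio was -0.52 while that of all 8452 genes was 0.19, and 74 members lay below 0. At a ratio of 1.2, 64 members were lower (23.5% of all genes) and 3 higher (44.6%). All members together fell by 32.3% in summed CPM.

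Markers of other cells also differed between these ECs. The 6 mural markers summed to 97.6 CPM at E15.5 and 39.5 CPM at E18.5, and the 3 tested all fell (median -1.33). Of those not tested, Rgs5 rose from 0.396 to 0.773 CPM and Cspg4 from 0.238 to 0.412 CPM, and Pdgfrb fell from 0.69 to 0.55 CPM. The 7 mesenchymal markers summed to 24.0 and 16.5 CPM, and the 1 tested fell by 0.73 on the log2 scale. Of the others Col6a1 rose from 0.758 to 2.01 CPM and Tcf21 from 0.521 to 1.01 CPM, and Pdgfra, Dcn, Lum and Mfap4 fell. Haemoglobins, which mark red blood cells, summed to 71.2 and 238 CPM, and of 4 tested 3 rose and 1 fell (median 1.58). Of 2 tested epithelial markers 1 rose and none fell (median 2.73), and of 2 immune markers 1 fell and none rose (median -1.10). All mural and mesenchymal markers had UMIs in both libraries, and 1 and 3 of the 8 haemoglobins had none. The part of all these markers in the lower level of the members was not tested.

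Genes of each complex were among those that fell, where 11.3% of all genes did. In complex IV 9 of 13 tested genes fell, with a median log2 ratio of -0.70. Of the accessory subunits of complex I, 12 of 29 fell (median -0.56), and 4 of 7 assembly factors did (median -0.66). In complex V 6 of 15 fell (median -0.52), and in complex III 3 of 8 (median -0.44). None of the 7 core subunits of complex I passed the fold, too few genes to set this count apart from 11.3%. Their median was -0.43. As sums, complex IV went from 9957 to 6501 CPM, complex V from 10697 to 7219, complex III from 3972 to 2732, and the core of complex I from 1284 to 984.

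Atp5g1, which encodes the same mature c subunit as Atp5g2 and Atp5g3 do, had the lowest ratio. Its levels were 462, 592, 248 and 324 CPM over the time course, with a log2 ratio of -1.25 from E15.5 to E18.5. The gene lies at chr11:96068852-96075670 (GRCm38, minus strand). Among the UMIs of the 3 c subunit genes, Atp5g1 made up 28.5% at E15.5 (95% interval 28.3 to 28.8) and 20.2% at E18.5 (19.9 to 20.5), while Atp5g2 went from 51.4% to 60.1% and Atp5g3 from 20.1% to 19.7%. These shares, like the others below, compare UMIs of genes with different 3′ ends and are not corrected for length.

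Atp5k, the e subunit of ATP synthase, was at 339, 506, 243 and 116 CPM at the 4 time points, so it fell again after birth. Ndufa5, an accessory subunit of complex I, was at 288, 335, 163 and 185 CPM. Cox5a, a nuclear subunit of complex IV, was at 644, 758, 383 and 412 CPM. Atp5k, Ndufa5 and Cox5a were each past the 1.5-fold between E15.5 and E18.5.

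The other core subunits chosen for each complex had ratios nearer to 0. Ndufs1, the largest iron-sulphur subunit of complex I, was at 49.7, 47.4, 45.4 and 35.9 CPM over the time course, with a log2 ratio of -0.06 between E15.5 and E18.5. Ndufv1, the subunit that binds NADH and FMN, was at 176, 123, 115 and 144 CPM. Uqcrc1, a core protein of complex III, was at 275, 200, 186 and 196 CPM, and Uqcrfs1, the Rieske protein, at 207, 255, 198 and 176 CPM. For the catalytic α and β subunits of ATP synthase, Atp5a1 was at 624, 541, 494 and 385 CPM and Atp5b at 700, 731, 626 and 546 CPM. None of these 6 genes passed the 1.5-fold between E15.5 and E18.5.

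**Figure D2:**
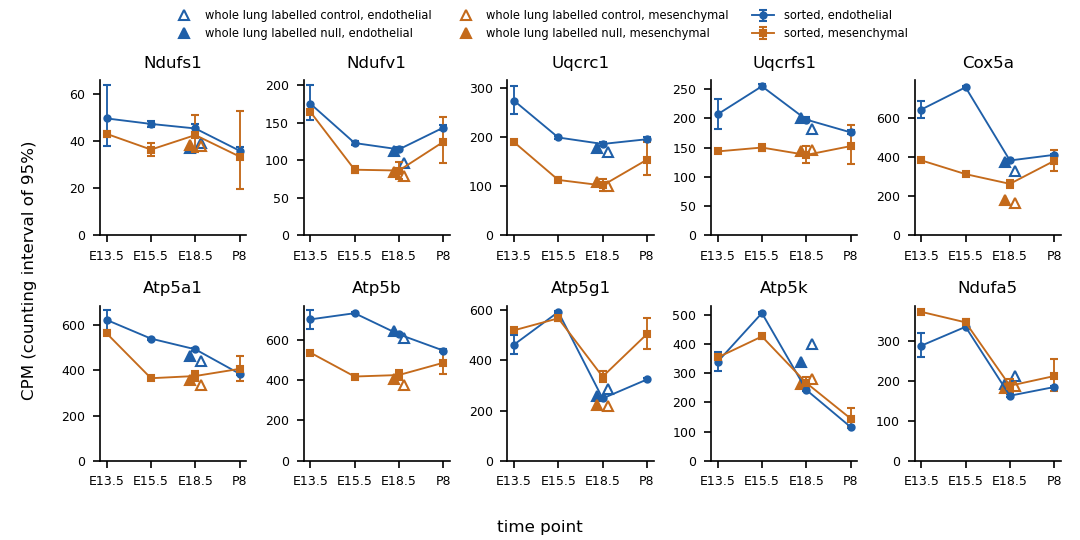
Levels in CPM of 10 members by time point in ECs and mesenchymal cells of the sorted libraries, with 95% counting intervals. Atp5g1, Atp5k, Ndufa5 and Cox5a dropped between E15.5 and E18.5 in ECs (log2 ratios of -1.25, -1.06, -1.04 and -0.98), while Ndufs1, Uqcrc1 and Ndufv1 differed by at most 0.10 on the log2 scale.

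The members above 0 were few. Ndufa4l2 rose from 0.543 CPM (0.401 to 0.720) to 14.9 CPM (13.95 to 15.95). It was tested through its E18.5 level alone, so that a rise was favoured. Cox7a2l, a factor that joins complexes III and IV into supercomplexes, was at 331 and 430 CPM, and Ndufa6 at 212 and 260 CPM, both within the 1.5-fold. The log2 ratio was 0.14 for Ndufaf3 and 0.09 for Cox7b.

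The lower level at E18.5 was less marked when the ECs of the whole lungs, which were not sorted, took the place of the sorted E18.5 library. The members' median was then -0.42 for the library labelled control and -0.40 for the library labelled null, and 17 of 79 members fell in each case, against 11.8% and 10.0% of all genes. All comparisons used the same E15.5 library. Against the ECs of the whole lung labelled control, the sorted E18.5 ECs had 1 member higher (Cox7b, 6.75% of all genes) and 2 lower (Atp5k and Ndufa3, 5.28%), with a median of -0.12 over 79 members. Cox7b was at 459 CPM in sorted and 292 CPM in unsorted ECs, and Atp5k at 243 and 401 CPM. Cxcl12 was far higher in the sorted ECs than in those labelled control. CellRanger was version 3.0.2 for the sorted E15.5 and E18.5 libraries and 3.1.0 for the whole lungs. Sort, genotype and CellRanger version cannot be told apart here. The makeup of the ECs differed too, with 5437 of 8990 past the arterial gate at E15.5, 3659 of 9006 in the sorted E18.5 library, and 200 of 1706 and 598 of 2623 in the whole lungs labelled control and null. In the sorted ECs the 3 tested mesenchymal markers were all lower than in the whole lung labelled control (median -2.80) and the 3 tested haemoglobins all higher (median 2.36), and of 3 mural markers 1 was higher and 1 lower. Their part in the smaller difference was not tested.

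**Figure D3:**
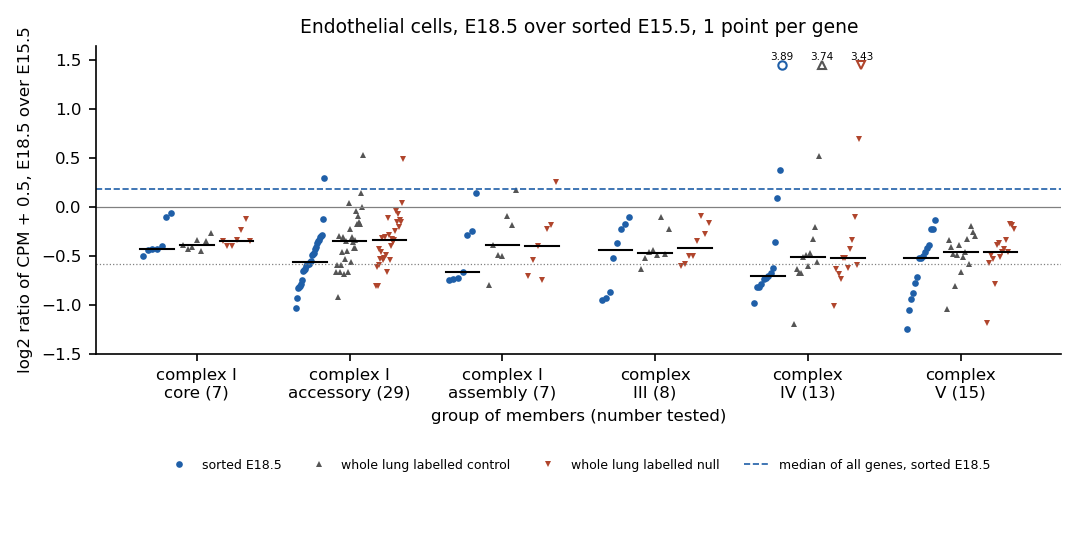
Log2 ratio of E18.5 to E15.5 in ECs for each tested member, by complex, with E18.5 taken from the sorted library or from either whole lung. The dotted line marks a 1.5-fold lower level and the dashed line the median of all genes, 0.19. Ndufa4l2 lies beyond the upper edge (3.89 with the sorted library).

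The members were also lower at E18.5 within kinds of EC and without cycling cells. The share of cycling ECs, with at least 2 UMIs of Mki67 and Top2a, was 22.8% at E15.5 and 6.43% at E18.5. Without any cell holding such a UMI, 31 of 79 members fell (9.43% of all genes) with a median of -0.49. Within cells past the arterial gate (Gja4 and Gja5) that did not cycle, 27 of 78 members fell (7.76% of all genes) with a median of -0.46. Within such cells past the general capillary gate (gCap, Gpihbp1) 37 of 79 did (13.1% of all genes), with a median of -0.57. Ribosomal protein genes took 23.3% of EC UMIs at E15.5 and 17.6% at E18.5, and their part in the CPM values of the members was removed by leaving them, the mt- transcripts, haemoglobins, Gm42418 and Malat1 out of the total. By that measure 43 of 79 members fell, against 14.1% of all genes, and the median was -0.61.

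Within a time point, cycling ECs had slightly more of the members than ECs with no UMI of Mki67 or Top2a. At E15.5, 2 of 78 members were higher in cycling cells (9.97% of all genes), Ndufaf2 and Ndufa5, and the median was 0.11. At E18.5 Ndufaf2 alone of 79 was higher (10.6%), with a median of 0.16, and at P8 none of 78 was (10%), with a median of 0.10. No member was lower by 1.5-fold at any of these times, against 9.72%, 8.85% and 5.05% of all genes. Cells with the highest Scrublet scores were counted as doublets at a set rate. They were 16.6%, 21.4% and 16.6% of the cycling ECs, against 4.49%, 6.01% and 6.1% of those without such a UMI. Without them the medians were 0.12, 0.17 and 0.11. At its own threshold Scrublet called 427 cells of the E15.5 library and 0 of those of E18.5 and P8. The mural markers summed to 71.3 CPM in cycling and 116 CPM in the other cells at E15.5, to 66.3 and 37.0 CPM at E18.5 and to 27.6 and 33.8 CPM at P8. The 3 tested haemoglobins were all higher in cycling cells at E18.5 (median 1.18), and the part of these markers was not tested. Cycling cells also held more UMIs, with medians of 12540 against 7608 at E15.5 and 9320 against 5460 at E18.5. The part of this was not tested either.

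Arterial ECs stood slightly below gCap ECs. At E15.5 3 of 78 members were lower in arterial cells (10.3%), Ndufaf2, Ndufaf4 and Ndufa8, none was higher (16.4%), and the median was -0.19. At E18.5 and P8 no member passed the fold in either direction, where 11.8% and 8.04% of all genes were higher and 10.6% and 8.29% lower, and both medians were -0.09. The gates also differed in cycling cells, which were 13.4% of arterial and 49.1% of gCap cells at E15.5, 2.05% and 14.2% at E18.5 and 2.51% and 7.51% at P8. Without cycling cells the medians were -0.14, -0.06 and -0.08, and 1 member was lower at E15.5 (7.08% of all genes), 1 at E18.5 (8.79%) and none at P8 (6.74%). The mural markers summed to 122 CPM in arterial and 34.9 CPM in gCap cells at E15.5, to 67.7 and 17.0 CPM at E18.5 and to 58.5 and 31.4 CPM at P8. The 3 tested were all higher in arterial cells at E15.5 and E18.5 (medians 1.82 and 2.36), and their part in the difference was not tested.

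In aerocytes (aCap, gated on Car4 and Ednrb) against gCap ECs, Ndufa4l2 alone of 79 members was higher at E18.5 (8.82%), none was lower (9.26%), and the median was -0.14. At P8 none of 78 was higher (10.8%) and 2 assembly factors, Ndufaf1 and Ndufaf6, were lower (10.8%), with a median of -0.12.

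Between E18.5 and P8 the members of ECs stayed near their E18.5 levels as a group. Of 79 tested, 3 rose (10.2% of all genes) and 2 fell (8.65%), and the median of 0.03 was next to 0.04 for all genes. Ndufaf6, an assembly factor of complex I, was at 22.4, 23.6, 13.8 and 45.8 CPM over the time course, so it fell and then rose above its earlier levels. This gene and Ndufaf4, which went from 25.9 to 39.4 CPM, are named because of these values. Uqcrq, a small subunit of complex III, was at 680, 600, 310 and 470 CPM. Atp5k and Ndufa4l2 fell, the latter from 14.9 to 4.68 CPM. Ndufa4l2 was tested through its E18.5 level alone, so that a fall was favoured.

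In mesenchymal cells few members passed the fold between E13.5 and E15.5. Of 82 tested, 7 fell (15.3% of all genes) and 2 rose (13.3%), with a median of -0.05 beside -0.12 for all genes. Ndufv1 went from 165 to 87.5 CPM and Uqcrc1 from 190 to 113 CPM. Among the others that fell were Atp5a1, Ndufa10 and Ndufaf2, by 0.62 to 0.70 on the log2 scale, and Ndufaf5, a member through its E13.5 level alone. Ndufb3 rose by 0.61 on that scale.

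Between E15.5 and E18.5, 14 of 81 members fell in mesenchymal cells (8.88% of all genes) and 1 rose (16.2%), with a median of -0.30 beside 0.05. Ndufa5 went from 346 to 188 CPM, Uqcr11 from 475 to 259 CPM and Ndufa4 from 916 to 531 CPM. Atp5g1 went from 567 to 335 CPM. Between E18.5 and P8, 13 of 80 rose (20.8%) and 2 fell (16.5%), with a median of 0.31 beside 0.11, in 282 and 68 cells. Ndufb7 went from 147 to 294 CPM, Uqcrq from 233 to 446 CPM and Ndufb2 from 152 to 275 CPM, whereas Atp5k went from 267 to 145 CPM.

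Markers of other cells were not constant in these mesenchymal cells. The endothelial markers summed to 42.7, 85.7, 140.0 and 117 CPM over the time course, the epithelial markers to 11.5, 44.1, 169.8 and 83.7 CPM and the haemoglobins to 33.1, 11.7, 32.3 and 29.8 CPM. Between E15.5 and E18.5, 4 of 5 tested endothelial markers rose (median 0.82), as did 2 of 3 epithelial markers, with 1 lower (median 0.71), and 2 of 2 haemoglobins (median 1.57). Between E18.5 and P8, 2 of 5 endothelial, 2 of 2 epithelial and 3 of 6 mural markers fell. Of the 7 mesenchymal markers 4 rose and 1 fell at the earlier of these steps, and 2 rose and 5 fell at the later. Their part in the members' changes was not tested.

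ECs had more of the members than mesenchymal cells of the same library at E15.5. There, 11 of 81 were higher in ECs (20.2% of all genes) and 3 lower (21.1%), with a median of 0.29 beside 0.06, and all members summed to 34912 CPM in ECs and 28626 CPM in mesenchymal cells. The 11 included Cox5a, at 758 CPM in ECs and 313 CPM in mesenchymal cells, Uqcrq at 600 and 332 CPM, and Uqcrc1 at 200 and 113 CPM. The shares of members past the fold were thus below those of all genes in both directions.

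At E13.5 2 of 82 members were higher in ECs (20%) and 3 lower (21.9%), with a median of 0.08. In the sorted E18.5 library 5 of 81 were higher (24.6%) and 5 lower (21.6%), with a median of 0.09. In the whole lung labelled control 12 of 82 were higher (23.5%) and 4 lower (22.8%), and in that labelled null 11 (23.4%) and 4 (22.2%), with medians of 0.18 and 0.21. In the whole lungs Cox5a was at 329 CPM in ECs and 165 CPM in mesenchymal cells of the library labelled control, and at 374 and 181 CPM in that labelled null. Cox4i2, Cox6b2 and Ndufa4l2 were lower in ECs than in mesenchymal cells by more than 1.5-fold in all 5 libraries so compared. Cox6b2 was under 10 CPM in ECs of all 5, and Cox4i2 and Ndufa4l2 in some. There they were tested through the mesenchymal cells alone, which favoured a lower level in ECs.

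Ndufa4l2, a paralogue of Ndufa4 that is known to be induced when oxygen is low, had the ratio farthest from 0 of all members tested in mesenchymal cells at each step of the time course. It lies at chr10:127514967-127517154 (GRCm38, plus strand). Mesenchymal cells had 18.6 CPM in the earliest library, then 50.1 CPM, 368 CPM (345 to 391) and, at P8, 31.6 CPM (18.4 to 50.6), and in the unsorted E18.5 lungs 434 CPM in the library labelled control and 392 CPM in that labelled null. All 3 libraries of E18.5 were high and the other time points low, with no overlap of their counting intervals.

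As a share of the UMIs of Ndufa4 and Ndufa4l2, Ndufa4l2 made up 2.65%, 5.19%, 40.9% (39.0 to 42.9) and 3.82% (2.24 to 6.05) in mesenchymal cells of the 4 time points. In cells past the pericyte gate of the whole lungs, the share was 57.1% (56.0 to 58.2) in the library labelled control. In that labelled null it was 3738 of 6230 UMIs, with an interval of 58.8% to 61.2%. In the same order the share was 43.7% and 34.3% in smooth muscle and 43.5% and 44.7% in the other mesenchymal cells. Ndufa4l2 in cells past the pericyte gate was at 608 and 638 CPM, against 96.5 and 85.0 CPM in epithelial cells that were not ciliated and 2.71 and 4.47 CPM in immune cells.

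In ECs Ndufa4l2 had no UMI at E13.5, where the limit set by 3 counts is 0.310% of the pair, and its later shares of the pair were 0.0456%, 2.17% and 0.719%. The whole lungs had 1.77% (labelled control) and 1.43% (labelled null). At E18.5 sorted ECs had 4.06% of the Ndufa4l2 level of the mesenchymal cells of their library, while 7 mesenchymal markers such as Col1a2 and Dcn stood at 0.0708% to 0.741% of theirs. At E15.5 Ndufa4l2 stood at 1.08% and these markers at 0.207% to 2.10%. In ECs of the whole lungs Ndufa4l2 stood at 3.09% beside markers at 0.620% to 5.69% (labelled control) and at 2.74% beside 0.791% to 3.03% (labelled null). The upper end was Lum in both, with 9 and 26 UMIs in ECs, the markers below it reached 1.14% and 1.13%, and the medians were 0.816% and 1.05%. At P8 Ndufa4l2 stood at 14.8% beside 0% to 1.23%, with 17 UMIs in the 68 mesenchymal cells. The mural markers stood in ECs at 0.214% to 5.28% of their mesenchymal level at E15.5, at 0.302% to 1.49% at E18.5 and at 0% to 1.87% in the P8 library, and at 1.81% to 3.35% (labelled control) and 1.08% to 3.31% (labelled null) in the whole lungs. The EC level of Ndufa4l2 was thus above both sets of markers in the sorted E18.5 and P8 libraries and inside both ranges at E15.5. In the whole lungs it was inside the range of the mural markers and above each mesenchymal marker but Lum.

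Among ECs of E18.5 Ndufa4l2 was highest in aCap cells. In the sorted library it was at 35.4 CPM in aCap (29.0 to 42.7), 13.1 in gCap (10.8 to 15.7) and 9.0045 in arterial cells (7.79 to 10.4). In the library labelled control it was at 33.6, 9.40 and 4.55 CPM, and in that labelled null at 19.9, 6.12 and 6.54 CPM. The aCap interval lay above that of gCap cells in all 3 libraries. The whole lungs had only 52 (labelled control) and 88 (labelled null) aCap cells. By Scrublet score 7.69% and 2.27% of them were counted as doublets, against 0.264% and 0.119% of gCap cells. In the sorted library these shares were 2.05% of aCap and 3.03% of gCap cells. The mesenchymal markers summed to 23.9 CPM in aCap and 13.5 CPM in gCap cells of the sorted library, to 211 and 91.9 CPM in that labelled control and to 125 and 114 CPM in that labelled null. In the sorted library the 1 such marker tested, Col6a1, was higher in aCap cells by 2.78 on the log2 scale. Pdgfra and Lum had no UMI in aCap cells of the sorted library, and Dcn and Lum had none in those of the whole lungs. The part of these markers, and that of the mural markers, in the Ndufa4l2 difference was not tested. At P8 Ndufa4l2 was at 4.24 CPM in aCap, 2.16 in gCap and 3.92 in arterial cells, with overlapping intervals.

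Cox4i2, the isoform of subunit 4 known from the lung, was high in cells past the pericyte gate. It lies at chr2:152754173-152765037 (GRCm38, plus strand). In the whole lungs Cox4i2 was at 222 CPM (211 to 233) and 251 CPM (238 to 264) in cells past the pericyte gate of the libraries labelled control and null, at 75.7 and 59.5 CPM in smooth muscle, and at 19.0 and 26.5 CPM in the other mesenchymal cells. Epithelial cells that were not ciliated had 32.0 and 31.9 CPM, and cells past none of the endothelial, mesenchymal, epithelial and immune gates, which can include pericyte cells, had 249.8 and 217 CPM. Its share of Cox4i1 and Cox4i2 UMIs was 20.9% and 21.5% in pericyte-gated cells. In smooth muscle it was 8.09% and 6.08%, and in the other mesenchymal cells 2.19% and 2.89%. Pericyte-gated cells thus had more Cox4i2 than smooth muscle and the other mesenchymal cells, beyond the counting intervals. In mesenchymal cells of the time course the share was 5.38%, 9.62%, 10.8% and 7.33%, and in ECs 1.02%, 0.386%, 0.913% and 1.09%. In ECs Cox4i2 went from 3.83 to 7.11 CPM between E15.5 and E18.5, while the mural markers went from 97.6 to 39.5 CPM in sum. Of these markers Rgs5 rose from 0.396 to 0.773 CPM and Cspg4 from 0.238 to 0.412 CPM, and Acta2, Tagln, Myl9 and Pdgfrb fell. Their part in the Cox4i2 change was not tested.

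Cox6b2, the isoform of subunit 6b known from testis, marked ciliated cells. It lies at chr7:4751792-4753094 (GRCm38, minus strand). Cox6b2 was at 424 CPM (389 to 462) in the 59 ciliated cells of the library labelled control and 390 CPM (356 to 427) in the 55 of that labelled null, against 18.2 and 23.1 CPM in the other epithelial cells. Its share of Cox6b1 and Cox6b2 UMIs was 39.5% and 37.3% in ciliated cells, 3.49% and 3.74% in the other epithelial cells, 21.3% and 22.8% in mesenchymal cells outside the mural gates, and 9.29% and 8.81% in immune cells. ECs of the time course had 1.12%, 0.384%, 0.531% and 0.156%.

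**Figure D4:**
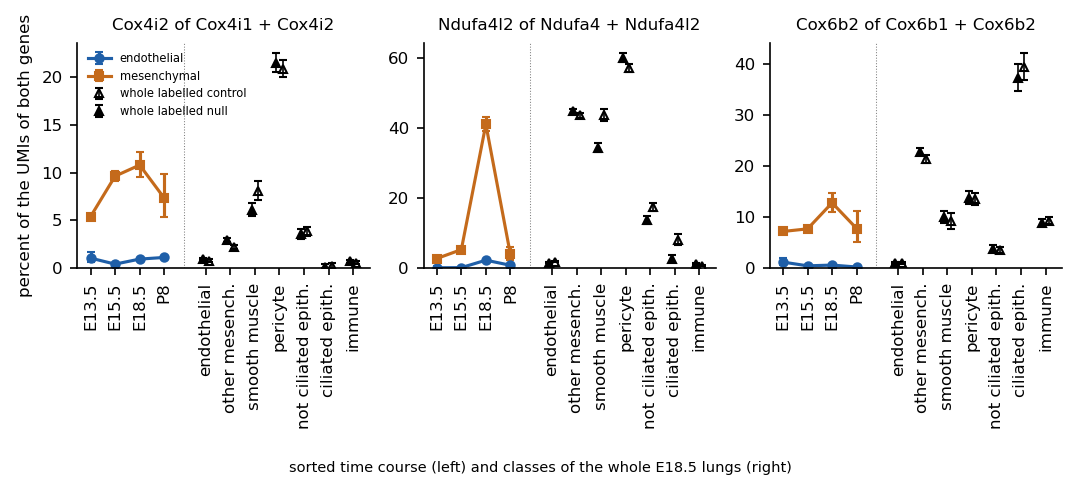
Share of Cox4i2, Ndufa4l2 and Cox6b2 in the UMIs of each isoform pair, in percent, by time point in ECs and mesenchymal cells and by class in both whole E18.5 lungs, with 95% Clopper-Pearson intervals. Ndufa4l2 peaked at E18.5 in mesenchymal cells (40.9%), Cox4i2 was, of the classes plotted, highest in cells past the pericyte gate (20.9% and 21.5%) and Cox6b2 in ciliated cells (39.5% and 37.3%).

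Among the classes of the whole lungs, ciliated cells had the highest sum of all members. All members summed to 33488 CPM (labelled control) and 33530 CPM (labelled null) in ciliated cells, against 23529 and 25859 CPM in the other epithelial cells, 25922 and 26136 CPM in ECs, 24730 and 25467 CPM in immune cells and 22776 and 22680 CPM in mesenchymal cells. The mt- transcripts were also highest there, at 63699 and 69974 CPM, and ribosomal protein genes took 14.3% and 11.7% of the UMIs of ciliated cells, against 28.5% and 28.2% in the other epithelial cells. Of the ciliated cells 52.5% and 41.8% were past the cycling gate, against 4.26% and 5.2% of the other epithelial cells. Without cycling cells fewer than 50 ciliated cells were left, so the part of cycling was not tested. Of 82 members 35 and 28 were higher in ciliated than in the other epithelial cells, but so were 44.3% and 46.8% of all genes, and 4 and 8 were lower (20.2% and 17.4%). The medians of 0.51 and 0.40 stood beside 0.43 and 0.51 for all genes.

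Single members stood apart in ciliated cells. Ndufaf3, an assembly factor of complex I, was at 572 CPM (531 to 615) and 446 CPM (409 to 485), against 35.0 and 38.9 CPM in the other epithelial cells. Ndufab1, the acyl carrier protein of mitochondria, was at 540 and 587 CPM against 195 and 209 CPM. Ndufs5 was at 629 and 510 CPM against 204 and 219 CPM. Lower in ciliated cells were Cox7a2l, at 244 and 233 CPM against 461 and 474 CPM, and Atp5d, the δ subunit of ATP synthase, at 335 and 345 CPM against 600 and 620 CPM.

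**Figure D5:**
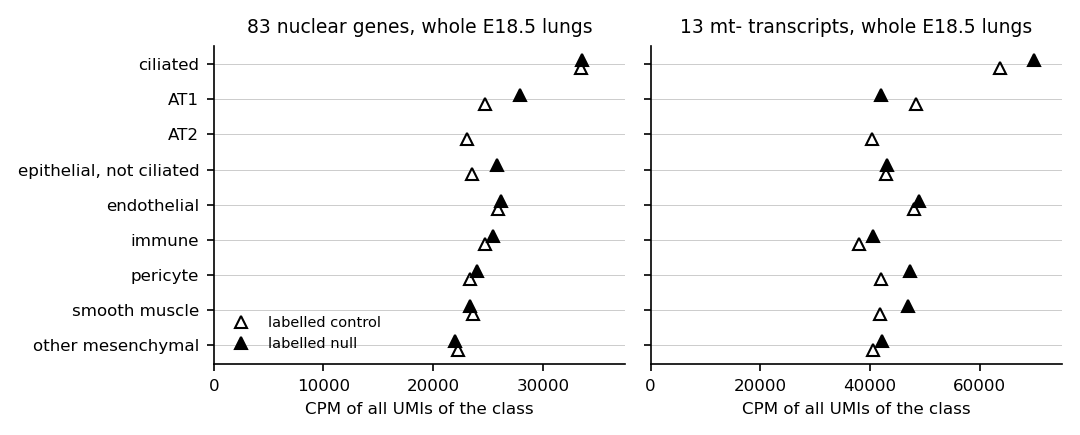
Summed level of the members (left) and of the mt- transcripts (right), in CPM, by cell class in the unsorted lungs labelled control and null. Ciliated cells were highest on both scales, at 33488 and 33530 CPM for the members.

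Against mesenchymal cells, epithelial cells had a positive median of the members where that of all genes was negative. In the library labelled control 7 of 82 members were higher in epithelial cells (20.4% of all genes) and 6 lower (36%), with a median of 0.15 beside -0.31, and in that labelled null 13 (22.2%) and 4 (34.7%), with 0.31 beside -0.26. In immune cells against mesenchymal cells, 10 of 82 were higher (26.5%) and 9 lower (37.4%) in the library labelled control, and 7 (29.6%) and 7 (34.3%) in that labelled null. Cox5a was at 600 and 648 CPM in immune cells against 165 and 181 CPM in mesenchymal cells, and Uqcrq at 468 and 491 CPM against 194 and 196 CPM. Ndufaf2 was lower in immune cells, at 20.7 and 16.7 CPM against 55.3 and 53.6 CPM.

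Within mesenchyme the isoforms made up most of what passed the fold. Pericyte-gated cells had 2 members higher than the mesenchymal cells outside the mural gates, Cox4i2 and Ndufa4l2, and 1 lower, Cox6b2, in each whole lung, where 9.95% and 14.2% of all genes were higher and 5.99% and 7.07% lower. Smooth muscle cells had Cox4i2 higher in each (13.2% and 15%), with Cox6b2 lower in each (7.89% and 7.77%) and Atp5s lower in the library labelled control.

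Between the whole lungs labelled null and control, no member passed the 1.5-fold in any class, on the counts before SoupX. Of all genes 1.24% were higher and 1.02% lower in ECs, 1.6% and 1.11% in mesenchymal cells, 2.19% and 1.4% in epithelial cells and 2.52% and 0.904% in immune cells. The medians over 79, 81, 82 and 78 members were 0.02, 0.00, 0.12 and 0.03. SoupX, which takes out free RNA, removed 18.1% of the UMIs of the library labelled null and 40.0% of that labelled control, and of the members' UMIs 19.3% and 46.6%. On the SoupX-adjusted values 1, 6, 8 and 8 members were higher in the library labelled null, where 10.99%, 8.32%, 19.9% and 16.8% of all genes were, none was lower, and the medians were 0.11, 0.18, 0.30 and 0.24. Because Cxcl12 goes against the labels in these libraries, these directions have no genotype attached.

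The mt- transcripts, which are the mitochondrial partners of the members, were also lower in sorted ECs at E18.5 than at E15.5. Their sums were 56436, 52419, 41044 and 35808 CPM from E13.5 to P8. Between E15.5 and E18.5 their log2 ratios ran from -0.70 (mt-Nd3) to -0.04 (mt-Nd2), with a median of -0.41, and 2 of 13 fell (11.3% of all genes). With the ECs of the whole lungs as E18.5 the median was -0.05 (labelled control) and -0.03 (labelled null), so this difference was not seen outside the sorted library. Cells were kept only with 0.5% to 10% of mitochondrial UMIs, and without these limits the members' median between E15.5 and E18.5 was -0.51. The mt- values here are from cells within the limits, which act on these same transcripts. Over the upper limit were 980 of 12789 barcodes in the sorted E15.5 library and 255 of 10020 in that of E18.5. Between E18.5 and P8 mt-Co1 went from 5684 to 2326 CPM and mt-Nd4l from 661 to 275 CPM, the 2 mt- transcripts that fell.

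Genes of the pathway outside the members were counted in the same comparison of ECs at E18.5 with E15.5. Of all genes 11.3% fell and 22.7% rose in it. None of the 4 genes of complex II passed the fold, with a median of -0.16, and Sdha was at 81.0 and 103 CPM and Sdhb at 249 and 183 CPM. Of 13 electron carriers and exchangers 4 fell and none rose (median -0.53), among them Cycs, cytochrome c, from 268 to 128 CPM. Cyc1 was at 212 and 147 CPM. Of the 16 genes of the citrate cycle 1 rose and none fell (median -0.11), and of 31 assembly factors outside the members 1 rose and 1 fell (median -0.19). Mitochondrial ribosomal proteins fell in 25 of 77 cases (median -0.48) and cytosolic ones in 22 of 83 (median -0.41), so genes outside the members fell as well.

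Of 9 tested regulators of mitochondrial genes 1 rose and 1 fell in ECs between E15.5 and E18.5, where 22.7% and 11.3% of all genes did, and their median of 0.29 stood beside 0.19. Nrf1 was at 21.9 and 28.6 CPM, Esrra at 11.9 and 16.1 CPM and Tfam, which packs mitochondrial DNA, at 32.0 and 30.5 CPM. Myc fell from 19.9 to 6.80 CPM and is named because it was the regulator that fell. It was tested through its E15.5 level alone, so that a fall was favoured. The regulator that rose had a log2 ratio of 0.81. Ppargc1a, a coactivator of these genes, was under 10 CPM in ECs of every library, at 0.802 to 3.54 CPM. In mesenchymal cells Ppargc1a was at 5.60, 13.1, 4.41 and 5.58 CPM over the time course.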

How the data were processed

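Single-cell libraries of 4 sorted time points and 2 whole E18.5 lungs were analysed, with samples grouped by their labels. The authors sequenced 3′ tags, aligned them to mm10 with CellRanger (3.0.2 for E15.5, E18.5 and P8, 3.1.0 otherwise, per the file headers) and deposited raw UMI counts per gene and cell. Expected counts, which SoupX gives after free RNA is taken out, were deposited too for the unsorted lungs. These were used only as an alternative, as they stand and without rounding, because no count model was fitted.

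Cells with at least 700 genes and 0.5% to 10% mitochondrial UMIs were kept. Cells with more than 10% of UMIs from haemoglobins were left out of every class, so haemoglobin values are those of the remaining cells. A cell belonged to a class if it passed 1 gate alone, with at least 2 UMIs of Epcam and Cdh1 for epithelial cells and of Ptprc, Coro1a and Tyrobp for immune cells, and the endothelial and mesenchymal gates given in the text. Outside the endothelial, epithelial and immune gates, pericyte cells had at least 2 UMIs of Higd1b, Trpc6 and Kcnk3 and smooth muscle cells at least 4 of Myh11, Cnn1 and Actg2, but not both, with or without the mesenchymal gate. Kinds of EC had at least 3 UMIs of the genes named for 1 gate alone, as had AT1 (Ager, Akap5 and Rtkn2) and AT2 cells (Lamp3, Abca3 and Slc34a2) among epithelial cells. Ciliated cells had at least 3 UMIs of Foxj1, Ccdc153 and Tmem212. As an alternative, the cells with the highest Scrublet scores were left out as doublets, at an assumed rate of 0.8% per 1000 cells. This took 1296, 1086, 728 and 571 cells of the sorted libraries by age, where the threshold of Scrublet itself called 1, 427, 0 and 0. In the whole lungs labelled null and control it took 671 and 547 cells, where that threshold called 477 and 430. UMIs were summed over the cells of a class and divided by all their UMIs, and classes under 50 cells gave no value. Intervals are exact Poisson for CPM and exact Clopper-Pearson for shares, at 95%, and a count of 0 is limited by 3 counts. Log2 ratios add 0.5 CPM, which understates changes of low genes. The ratios and the Poisson intervals were tested on simulated sums drawn with counting error alone. Gates, cell filters, doublets, free RNA and the spread between cells or libraries were not simulated. Fewer cells of a type and less RNA per cell cannot be told apart in sums over a gate.

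Named were the isoform pairs, core subunits of each complex, the 3 members with the largest ratio in each direction at 50 CPM or more that kept 1 direction under the alternatives, 8 genes outside the members, the mt- transcripts and Cxcl12. Other genes are named because of their values. The result of another member is not reported here. The members and lists were chosen with earlier results of these data known. The form of the NRF1 letters is the shorter of 2, chosen after the result of the longer one had been seen. Places come from GENCODE M21 (GRCm38). Python 3.11.15, numpy 2.4.6, pandas 2.3.3, scipy 1.17.1, scanpy 1.11.5 and matplotlib 3.10.9 were used.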

Additional observations from a re-analysis of the deposited data

How the results depend on the processing

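The median log2 ratio over the members was recomputed for 34 comparisons. In 44 of 459 cases it left a 95% range set by the ranks of the members' ratios, in 415 it stayed inside, and no median of at least 1.2-fold changed sign. Between E15.5 and E18.5 in ECs it ranged from -0.61 to -0.40 and the number of members that fell from 17 to 43. The lowest numbers, 17 with each whole lung as E18.5 (medians -0.42 labelled control and -0.40 labelled null), came from alternatives added after the data had been seen, as did the arterial and gCap cells and the cells without shared barcodes.

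With mt-, haemoglobin and ribosomal protein genes, Gm42418 and Malat1 left out of the total, the median was -0.07 for P8 over E18.5 and -0.20 for sorted over unsorted in ECs, 0.11 for cycling ECs at E18.5, -0.25 for arterial over gCap at E15.5, and -0.21 and -0.17 for aCap over gCap at E18.5 and P8. In the whole lungs it was 0.07 for labelled null over labelled control in epithelial cells and, in the library labelled control, 0.22 for epithelial over mesenchymal, 0.22 for ciliated over other epithelial, 0.02 for pericyte and 0.03 for smooth muscle over other mesenchymal cells. In that labelled null it was 0.10 for ciliated cells and 0.01 for smooth muscle.

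With median-of-ratios scaling it was 0.18 for P8 over E18.5 in mesenchymal cells, 0.16 and -0.02 for ECs over mesenchymal cells at E15.5 and E18.5, -0.04 for arterial over gCap at P8, and 0.02, 0.07 and 0.01 for labelled null over labelled control in mesenchymal, epithelial and immune cells. It was 0.29 and 0.41 for epithelial over mesenchymal, 0.24 and 0.12 for ciliated, -0.05 and -0.02 for pericyte and -0.02 and -0.03 for smooth muscle cells in the libraries labelled control and null.

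With SoupX-adjusted values it was 0.29 for ECs over mesenchymal, 0.23 for epithelial over mesenchymal, 0.81 for ciliated and 0.13 for pericyte cells of the library labelled control, and 0.11, 0.18, 0.30 and 0.24 for labelled null over labelled control in endothelial, mesenchymal, epithelial and immune cells. Without cycling cells it was 0.21 for ECs over mesenchymal cells at E15.5, -0.12 for aCap over gCap at E18.5, 0.01 for labelled null over labelled control in immune cells, 0.06 for epithelial over mesenchymal (labelled control) and -0.05 for immune over mesenchymal (labelled null). The mean of per-cell CPM gave 0.01 for labelled null over labelled control in immune cells. The cause of these shifts was not tested.

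No paired analysis was possible because each condition had 1 library, and leaving out a replicate was not possible either. Depth limits the 173 ECs of E13.5, the 68 mesenchymal cells of P8 and the ciliated cells, where counting intervals are wide. Counting intervals say nothing of the spread between lungs or libraries.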
